A study of Mus musculus with 18 samples.

Results

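The genes described here are *Dux*, *Zscan4c*, *Zscan4d*, *Zscan4f*, *Tcstv1*, *Tcstv3*, *Dppa2* and *Dppa4*, a set of 8 genes of the 2-cell (2C) program chosen by name from the 18659 genes of the RNA-seq table. The cells were male E14 mouse embryonic stem cells (mESCs) grown in serum (FCS) with LIF, and the study asked how the transcriptome responds to loss of *Stag1*, which encodes a cohesin subunit. All treated cells were harvested after 24 h of siRNA. Set 1 held 1 library of scrambled siRNA (scr) and 3 of the SmartPool to *Stag1* (SP 1a, SP 1b and SP 1c). Sets 2 and 3 each held 1 library of scr, of SP, of siRNA to the 3′ end (3p) and to the 5′ end (5p) of *Stag1*, and of an enzymatically made siRNA pool to the 5′ UTR named SATS. Set 2 also held untreated cells, and set 3 an siRNA to luciferase. The knockdowns were transient and partial: *Stag1* was at 17.3% to 32.8% of scr of the same set in the 9 SP, 3p and 5p libraries and at 49.7% to 50.5% in the 2 SATS libraries, against 86.3% in untreated cells and 104% with luciferase siRNA.

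In mouse, the 2C stage is when the embryonic genome is first switched on, and a small changing minority of cultured mESCs re-enters a similar state. DPPA2 and DPPA4 are DNA-binding proteins that act together upstream of *Dux*. *Dux* encodes a homeobox factor that switches on 2C genes and certain endogenous retroviruses. The *Zscan4* genes, a tandem family of SCAN and zinc finger factors linked to telomere maintenance, and the *Tcstv* genes are among the transcripts that mark the 2C-like state. These are bulk libraries, so that more cells in the 2C-like state and more RNA per such cell cannot be told apart.

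The 3 *Zscan4* genes are near copies of each other on chromosome 7 (GRCm38), which limits how their reads can be divided. *Zscan4c* lies, by GENCODE vM21, at chr7:11005745-11010547 (+), *Zscan4d* at chr7:11161374-11166159 (−) and *Zscan4f* at chr7:11397915-11402318 (+). The stretch around the letters TATAAA upstream of their starts is shown because the 3 genes had the same difference in direction between replicate sets. A part of this stretch in that difference was not tested. The letters begin 54, 65 and 31 bases before the RefSeq starts of *Zscan4c*, *Zscan4d* and *Zscan4f*. Sequences are from RefSeq promoters of GRCm38.p6, read 5′ to 3′ in the direction of the gene, with the letters TATAAA in capitals. RefSeq promoters were matched for 3 of the 8 members.
*Zscan4c*, chr7:11005679-11005708 (+): gaagccaggcgcTATAAAagggaaccaatc
*Zscan4d*, chr7:11166196-11166225 (−): gaagccaggggcTATAAAagggaaccaatc
*Zscan4f*, chr7:11397872-11397901 (+): gaagccaggcgcTATAAAagggaaccaatc

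The windows of *Zscan4c* and *Zscan4f* were identical, and *Zscan4d* matched each of them at 29 of 30 bases. Over the 216 upstream bases that could be aligned on TATAAA, *Zscan4c* and *Zscan4f* were 99.5% identical, and *Zscan4d* was 97.2% identical to *Zscan4c*. The letters TATAAA occurred, on either strand, in 12.4% of 32851 promoters of the same 250 bases. The letters TGATTNAAT, close to the sequence that mouse DUX is known to prefer, were present 184 bases upstream of *Zscan4c* and 161 bases upstream of *Zscan4f* but not in this window of *Zscan4d*, and in 0.658% of all promoters. In the GENCODE transcripts, 78.6% of the 75-base stretches of *Zscan4c*, 39.5% of *Zscan4d* and 83.4% of *Zscan4f* also occurred in other genes, most often other *Zscan4* copies. The share was 25.8% for *Dppa2*, 20.1% for *Dppa4*, 14.3% for *Tcstv3* and 6.94% for *Tcstv1*. How the counting treated reads with several matches is not given in the sources used here, so that the split among *Zscan4* rows is uncertain and their sum is given as well. *Tcstv1* and *Tcstv3* lie at chr13:119893388-119894785 (−) and chr13:120316878-120318178 (+), and *Dppa4* and *Dppa2* are neighbours at chr16:48283733-48294237 (+) and chr16:48303908-48319723 (+).

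Each value below is a normalised read count, that is, reads divided by 1 size factor per library, and is followed by the whole reads recovered from it. Set 1 was shallow, with 9023224 to 14040830 reads on genes of which *Rn45s* took 69.2% to 79.1%, so that 1 read was worth 3.22 to 8.05. Sets 2 and 3 held 32137666 to 45660840 reads with 14.7% to 23.9% on *Rn45s*, and 1 read was worth 0.353 to 0.479. The 8 markers of mESCs checked, *Pou5f1* and *Sox2* among them, were at 1796 or more in all 12 libraries of sets 2 and 3. The study calls the replicates independent, but the sources used here do not say whether the sets, or the 3 SP libraries of set 1, came from separate cultures, and p-values measure the spread between these libraries, which may be technical.

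The members covered a wide range of levels. Per kilobase of exon, the mean level over the 12 libraries of sets 2 and 3 was 796 ± 127 (SD) for *Dppa4* and 390 ± 31.4 for *Dppa2*, against 26.9 ± 18.8 for *Zscan4d*, 19.6 ± 14.3 for *Zscan4c* and 9.28 ± 5.09 for *Zscan4f*. *Tcstv3* followed at 3.70 ± 2.84 and *Tcstv1* at 0.472 ± 0.549. Each gene was above the next in this order in all 12 libraries, except that *Zscan4c* was above *Zscan4f* in 10 of 12. The order of the 3 *Zscan4* genes may depend on how reads with several matches were counted, which is not known. The regulators *Dppa2* and *Dppa4* were thus well measured in every library, and *Dux* and the *Tcstv* genes rested on few reads. No level per length is given for *Dux*, for which the annotation held no entry of that name.

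**Figure D1:**
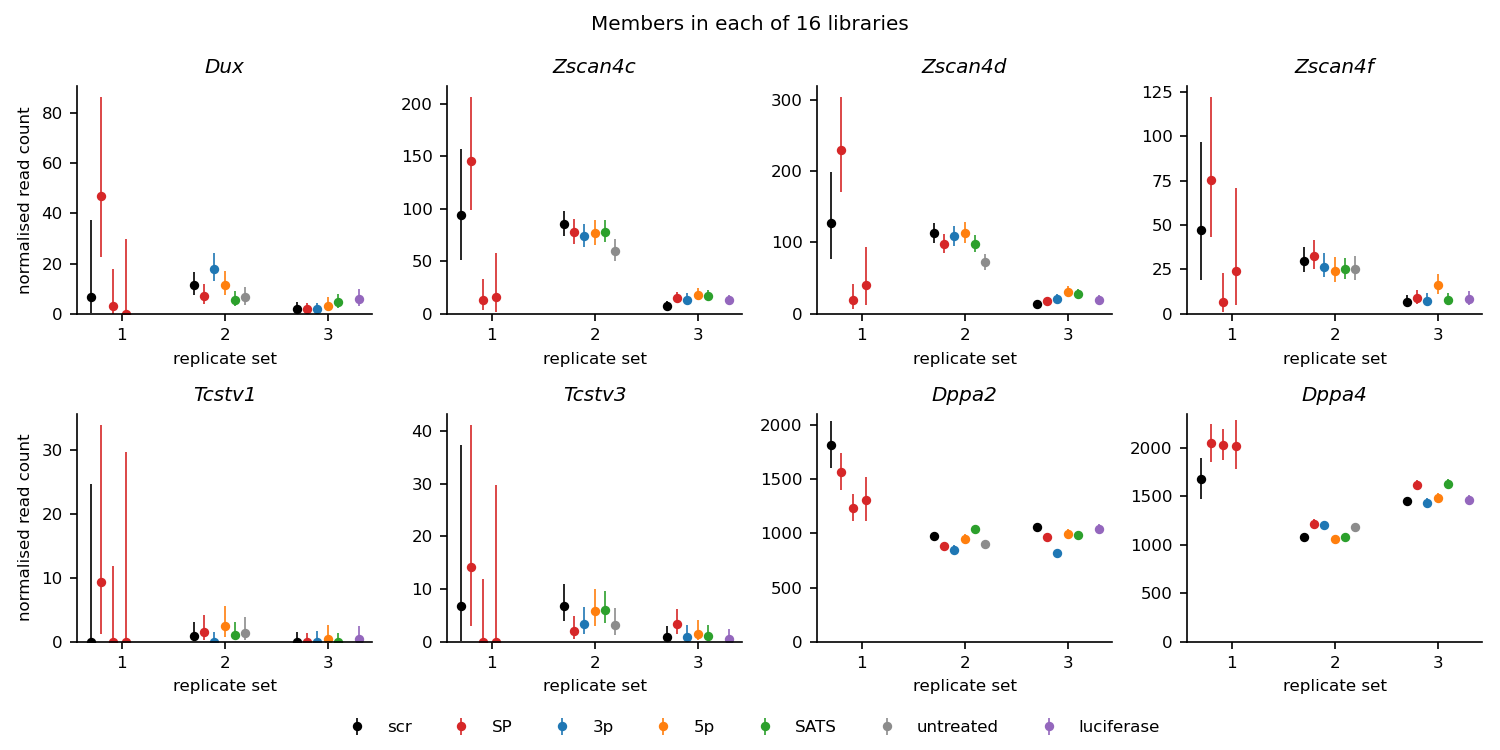
Normalised read count (y axis) of each of the 8 genes by replicate set (x axis), 1 point per library coloured by treatment, with 2-sided 95% Poisson intervals for counting error. *Zscan4c*, *Zscan4d* and *Zscan4f* were higher in all 6 libraries of set 2 than in all 6 of set 3, *Dppa4* was lower, and the SP points of set 1 lie far apart.

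The comparison of knockdown with scr asked whether loss of *Stag1* changed these genes. None of the 7 members tested passed in any of 6 comparisons by limma, with or without the replicate set as a block, and none passed by edgeR or DESeq2 on the recovered reads. *Tcstv1* was too low to be tested. The *Zscan4* genes differed between replicate sets, and SP 1a of set 1 differed from SP 1b and SP 1c by over 3-fold in each *Zscan4* gene. *Dppa4* was above and *Dppa2* below scr in each SP library, with differences that did not pass the test.

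*Dppa4*, of the upstream regulators, was above scr in each SP library. In set 1 it was 1674 in scr (250 reads), 2045 in SP 1a (435), 2026 in SP 1b (630) and 2021 in SP 1c (251). In set 2 it was 1078 in scr (2571), 1214 in SP (2535), 1203 in 3p (2894), 1058 in 5p (2217), 1081 in SATS (3064) and 1179 in untreated cells (2694). In set 3 it was 1446 in scr (3645), 1617 in SP (4398), 1431 in 3p (3248), 1482 in 5p (3203), 1631 in SATS (4516) and 1461 with luciferase siRNA (3415). All 5 SP libraries were above scr of their set, by ratios of 1.22, 1.21 and 1.21 in set 1, 1.13 in set 2 and 1.12 in set 3, each with a 95% counting interval above 1. Across all genes, 7.52% had all 5 SP libraries above scr, and the 3 SP libraries of set 1 share 1 scr library. The SP difference over 3 sets was 0.20 on the log2 scale (SE 0.24, adjusted p = 1.0 by limma; with the block, SE 0.077, unadjusted p = 0.036, adjusted p = 0.76). Untreated cells were also above scr, at 1.09 times (95% interval 1.04 to 1.16), and against untreated cells SP of set 2 was at 1.03 times (0.9746 to 1.09), whereas SP of set 3 was at 1.11 times luciferase siRNA (1.06 to 1.16). The other treatments went no single way: 3p was above scr in set 2 and SATS in set 3, each by 1.12 to 1.13 times, and both were within counting error in the other set.

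*Dppa2* lay on the other side of scr. In set 1 it was 1815 in scr (271 reads), 1565 in SP 1a (333), 1232 in SP 1b (383) and 1305 in SP 1c (162). In set 2 it was 973 in scr (2319), 881 in SP (1839), 851 in 3p (2048), 951 in 5p (1992), 1039 in SATS (2945) and 904 in untreated cells (2064). In set 3 it was 1057 in scr (2665), 966 in SP (2627), 822 in 3p (1866), 996 in 5p (2152), 981 in SATS (2717) and 1044 with luciferase siRNA (2440). Each SP library was below scr of its set, as in 8.6% of all genes, with ratios between 0.679 and 0.913. The 95% counting interval of SP 1a covered 1 (0.863, 0.733 to 1.02), and those of the other SP libraries lay below 1. The lowest value of both sets 2 and 3 was that of 3p. The SP difference over 3 sets was -0.23 (SE 0.28, adjusted p = 1.0; with the block, SE 0.092, unadjusted p = 0.046, adjusted p = 0.76). For 3p it was -0.28 (SE 0.098, unadjusted p = 0.023, adjusted p = 1.0; with the block, unadjusted p = 0.0044, adjusted p = 0.20), and against 3p, 5p was higher by 0.22 (SE 0.098, adjusted p = 1.0; with the block, adjusted p = 0.19). The untreated library of set 2 was itself at 0.929 times scr (95% interval 0.875 to 0.986). Against untreated cells, SP and 3p of set 2 were at 0.9746 and 0.942 times, with intervals that covered 1, and against luciferase siRNA, SP and 3p of set 3 were at 0.925 and 0.788 times, with intervals below 1.

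**Figure D2:**
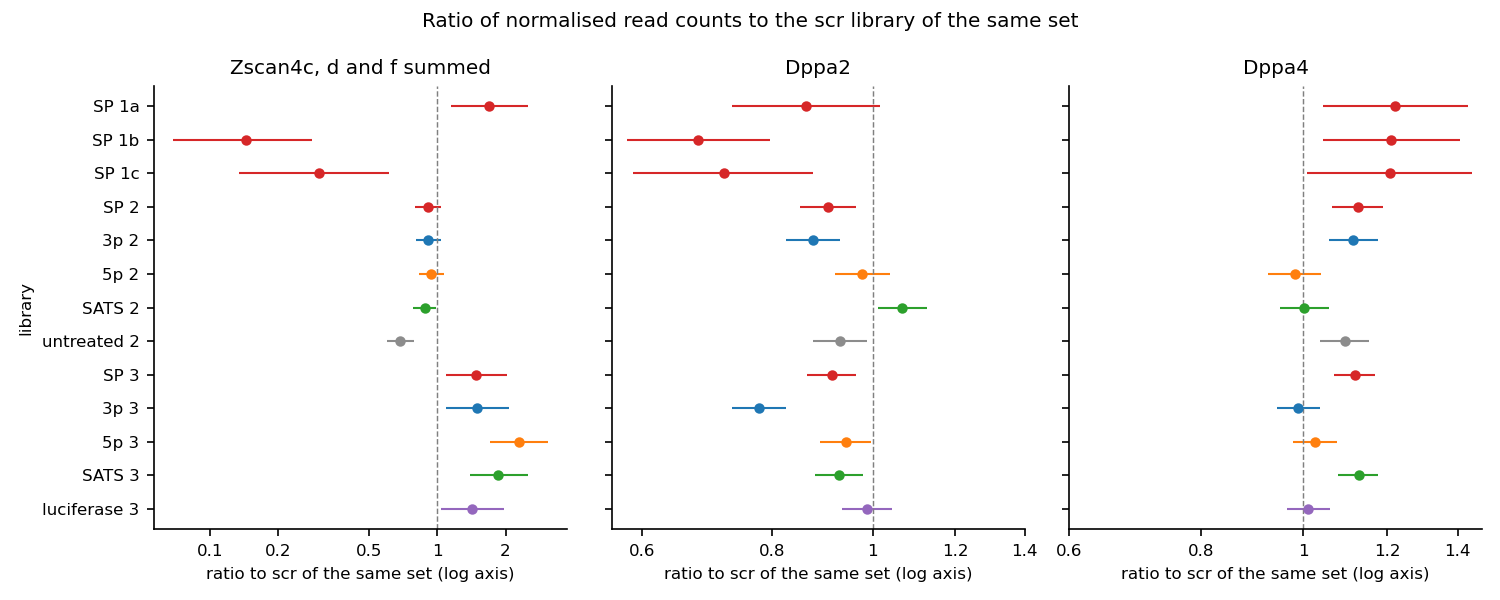
Ratio of the normalised read count to the scr library of the same set (x axis, log scale) for each of 13 libraries (y axis), with 95% counting intervals, for the summed *Zscan4c*, *Zscan4d* and *Zscan4f* and for *Dppa2* and *Dppa4*. *Dppa4* lies above 1 and *Dppa2* below 1 in all 5 SP libraries, whereas the *Zscan4* sum lies on both sides of 1 within SP.

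*Dux*, which stands between the regulators and the *Zscan4* genes, was near the detection limit. In set 1 it was 6.70 in scr from 1 read, 47.0 in SP 1a from 10 reads, 3.22 in SP 1b from 1 read and 0 in SP 1c, where the limit that a count of 0 allows (3 reads, a 1-sided limit) was 24.2. In set 2 it was 11.3 in scr (27 reads), 7.18 in SP (15), 17.9 in 3p (43), 11.5 in 5p (24), 5.64 in SATS (16) and 6.57 in untreated cells (15). In set 3 it was 1.98 in scr (5), 1.84 in SP (5), 1.76 in 3p (4), 3.24 in 5p (7), 4.69 in SATS (13) and 5.99 with luciferase siRNA (14). The highest library was thus SP in set 1, 3p in set 2 and a control in set 3. Of the 13 ratios to scr, counting intervals lay below 1 for SATS of set 2 (0.498, 0.251 to 0.959) and above 1 for luciferase siRNA (3.02, 1.03 to 10.7), and the other 11 covered 1. The limma difference of SP over 3 sets was 0.18 (95% interval -1.86 to 2.22) and that of 5p was 0.26 (-2.24 to 2.76). With the block the intervals were -1.12 to 1.48 and -0.75 to 1.27.

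The *Zscan4* genes were measured with more reads and showed mainly the replicate set. *Zscan4d* in set 2 was 113 in scr (269 reads), 97.7 in SP (204), 109 in 3p (261), 114 in 5p (238), 97.7 in SATS (277) and 72.2 in untreated cells (165). In set 3 it was 13.9 in scr (35), 18.0 in SP (49), 21.1 in 3p (48), 30.1 in 5p (65), 27.8 in SATS (77) and 19.3 with luciferase siRNA (45). All 6 libraries of set 2 were above all 6 of set 3, with means of 100.4 ± 15.5 and 21.7 ± 6.14 (SD, n = 6 each).

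*Zscan4c* had the same shape. In set 2 it was 85.6 in scr (204 reads), 77.6 in SP (162), 74.0 in 3p (178), 76.8 in 5p (161), 78.3 in SATS (222) and 60.0 in untreated cells (137). In set 3 it was 7.54 in scr (19), 15.1 in SP (41), 13.7 in 3p (31), 18.0 in 5p (39), 16.97 in SATS (47) and 12.8 with luciferase siRNA (30). For *Zscan4f* the 6 libraries ranged from 24.3 to 32.6 in set 2, on 51 to 71 reads, and from 6.74 to 16.2 in set 3, on 17 to 35 reads. For this gene 5p was the lowest library of set 2 and the highest of set 3.

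The set means differed 5.38-fold for *Zscan4c*, 4.63-fold for *Zscan4d* and 2.97-fold for *Zscan4f*. Within each of the 5 treatments that both sets hold, set 2 was higher for all 3 genes, between 1.503 times (*Zscan4f*, 5p) and 11.4 times (*Zscan4c*, scr). *Dux* was 3.08-fold higher in set 2 on average, 10.0 ± 4.57 against 3.25 ± 1.76, with ranges that overlapped, since luciferase siRNA of set 3 was above SATS of set 2. *Tcstv3* was 4.46 ± 1.94 against 1.31 ± 1.03, also overlapping. *Tcstv1* had 16 reads over the 6 libraries of set 2 and 2 reads over those of set 3. The regulators did not share this: *Dppa2* was 933 ± 68.4 against 978 ± 84.2, and *Dppa4* was lower in set 2, at 1136 ± 70.5 against 1511 ± 89.0, without overlap.

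Ranges of set 2 lay wholly above those of set 3 for 14.9% of 16684 genes and wholly below for 10.9%, so that a difference between sets was common. Among 7 members with a summed value of at least 10 it was so for 3 and 1 respectively. Among 29 further 2C genes that passed the same filter, 22 were wholly higher in set 2 and none wholly lower. Their median log2 difference was 1.89 against 0.0043 over all genes. The filter sums both sets, so a low gene can pass through set 2 alone. *Pramef6* (means of 2.69 and 0.465 in sets 2 and 3) and *Ubtfl1* (6.71 and 0.756) are among the 22. The list was written with earlier results of these data known, so the count is a description only. The list holds gene families, with *Zscan4a*, *Zscan4b* and *Usp17la* to *Usp17le* among the 22, so its genes are not independent of each other or of the members. The list's most abundant gene, *Pramef12*, was 407 ± 26.3 against 306 ± 22.7, whereas *Zscan4a* was 133 ± 14.8 against 21.4 ± 6.13 and *Gm5662* was 118 ± 20.4 against 25.3 ± 6.67. The labels give no more than a set number for what separates the sets, and set 2 has untreated cells where set 3 has luciferase siRNA.

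Other markers also moved with the set. The summed level of 7 fibroblast markers was 2595 to 5693 in set 2, 341 to 551 in set 3 and 83.6 to 459 in set 1. Of the 6 tested, 4 (*Col1a1*, *Col1a2*, *Col3a1* and *Postn*) were wholly higher in set 2, none of the 7 was at 0 in set 2, and at most 1 was at 0 in a library of set 3. *Nanog*, *Zfp42* and *Esrrb*, of the naive mESC state, were wholly higher in set 2 by 1.51 to 1.73 times, *Tdgf1* was wholly lower, and of 6 trophoblast markers 3 were wholly higher in set 2, *Krt8* at 14330 ± 2067 against 4440 ± 1329 among them, and 1 was wholly lower, *Eomes* at 104.5 ± 7.72 against 199.9 ± 36.1. The part of these differences in the *Zscan4* result was not tested.

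**Figure D3:**
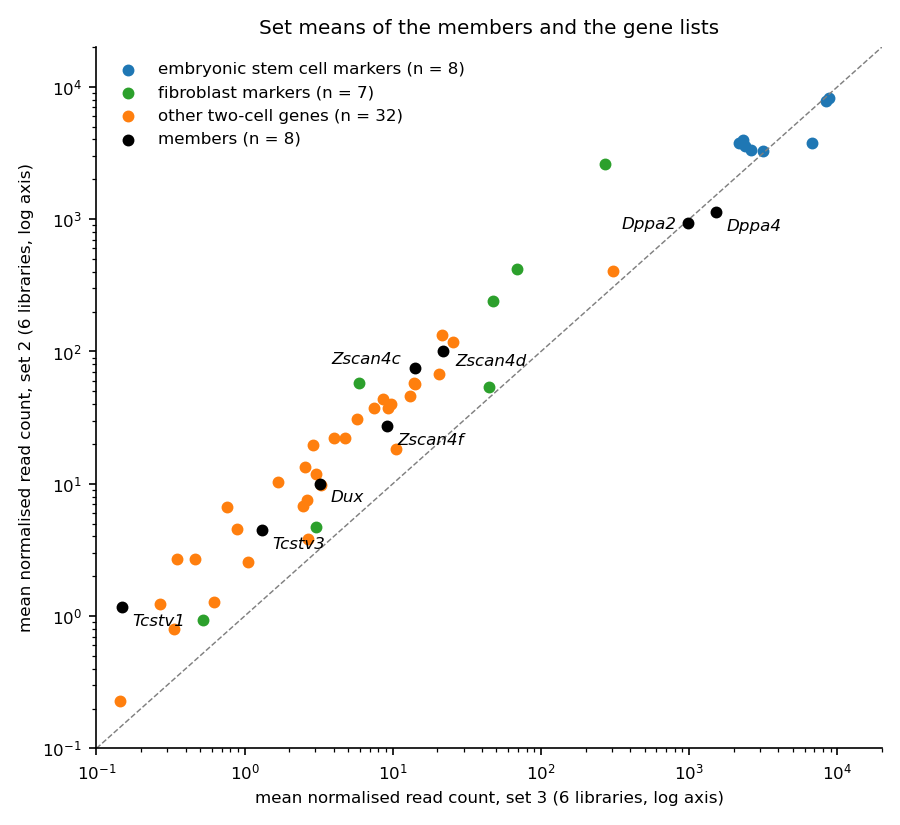
Mean normalised read count over the 6 libraries of set 3 (x axis, log scale) and of set 2 (y axis, log scale) for the 8 members, the other 2C genes, the mESC markers and the fibroblast markers. The dashed line marks equal means: *Zscan4*, *Dux* and *Tcstv* genes lie above it with the other 2C genes, and *Dppa2* and *Dppa4* lie on or below it.

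The place of the knockdown libraries among the controls differed between sets. In set 3, *Zscan4c*, *Zscan4d* and *Zscan4f* were each lowest in scr, as were 13.3% of all genes and 9 of the 29 further 2C genes. The sum of the 3 genes was 28.2 in scr 3, and by ratio it was 1.49 times that in SP (95% counting interval 1.10 to 2.03), 1.501 in 3p (1.09 to 2.07), 2.28 in 5p (1.70 to 3.08) and 1.86 in SATS (1.39 to 2.51). Luciferase siRNA, a second control, was at 1.43 times scr (1.04 to 1.97). All 4 siRNAs to *Stag1* or SATS were above both controls by this sum. Against luciferase siRNA the ratios were 1.04 for SP (0.786 to 1.38), 1.05 for 3p (0.783 to 1.41), 1.60 for 5p (1.22 to 2.10) and 1.30 for SATS (0.998 to 1.71), so that of the 4 the interval of 5p lay above 1; with *Zscan4a* and *Zscan4b* added to the sum that of SATS did too, and SP and 3p were then below luciferase siRNA.

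In set 2 scr was at the other end of the order. The *Zscan4* sum was highest in scr, at 228, and SP, 3p, 5p and SATS were at 0.911, 0.916, 0.941 and 0.881 times scr. The 95% counting intervals of SP, 3p and 5p covered 1, and that of SATS was 0.782 to 0.993. Untreated cells were lowest, at 0.689 times (95% counting interval 0.601 to 0.788), and all 4 siRNAs to *Stag1* or SATS were above untreated cells by 1.28 to 1.37 times. Untreated cells were thus farther from scr than any siRNA library of set 2 was, and by the sum of 3 genes luciferase siRNA was nearer to scr than the other libraries of set 3 were, which did not hold for SP and 3p with *Zscan4a* and *Zscan4b* added. These intervals cover counting error only.

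The custom 5′ siRNA had the highest *Zscan4* differences in the fits. For *Zscan4d*, 5p against scr was 0.54 on the log2 scale (SE 1.3, adjusted p = 1.0 by limma; with the block, SE 0.23, 95% interval 0.036 to 1.04, unadjusted p = 0.038, adjusted p = 0.28). For *Zscan4c* it was 0.50 (with the block, 95% interval -0.065 to 1.07, adjusted p = 0.38) and for *Zscan4f* 0.43 (with the block, -0.22 to 1.09, adjusted p = 0.53). By set, 5p over scr was 1.01 times in set 2 and 2.17 times in set 3 for *Zscan4d*, and 0.898 and 2.39 times for *Zscan4c*. For *Zscan4f* it was 0.817 times in set 2 (95% counting interval 0.559 to 1.19) and 2.40 times in set 3 (1.31 to 4.57). Of the 7 members tested, *Dux* and *Zscan4d* had 5p above scr in both sets, as were 32.5% of all genes and 21 of 29 further 2C genes. Against 3p, 5p was higher in both sets for *Zscan4c*, *Zscan4d*, *Tcstv3* and *Dppa2*, 4 of 7 members, with 30.1% of all genes and 22 of 29 further 2C genes. For *Zscan4f*, 5p was at 0.915 times 3p in set 2 and at 2.16 times in set 3. The direct difference of 5p and 3p was 0.28 for *Zscan4d*, 0.22 for *Zscan4c* and 0.45 for *Zscan4f*, with block intervals of -0.22 to 0.78, -0.35 to 0.78 and -0.21 to 1.10, so that differences of up to about 1 on the log2 scale stayed within the error.

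For SP the *Zscan4* differences in sets 2 and 3 were 0.39 for *Zscan4c*, 0.074 for *Zscan4d* and 0.23 for *Zscan4f*, and for SATS they were 0.47, 0.37 and -0.046, with adjusted p of 0.36 or more with the block. *Tcstv3*, a 2C transcript of few reads, was 1.92 in SP (4 reads) and 6.71 in scr (16) in set 2, but 3.31 in SP (9) and 0.793 in scr (2) in set 3. The 2 sets therefore disagreed in direction, and the fitted SP difference was -0.069 (95% interval -2.19 to 2.05). *Tcstv1* had 1 to 5 reads in 7 of these 12 libraries and 0 in the other 5, where the limit of 3 reads is 1.08 to 1.32.

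By count, the shares of all genes called were small without the block, so that the absence of members is close to the background. Of all genes, 0% were called for SP over 3 sets (84 of 15970 at an unadjusted p under 0.05), 0.00606% for SP, 0.00606% for 3p, 0.0121% for 5p, 0% for SATS (650 of 16490 unadjusted) and 0% for 5p against 3p (674 unadjusted) in sets 2 and 3. On recovered reads edgeR also called 0 in those 3 comparisons, and DESeq2 called 1 gene, 3 genes, and 32 higher and 56 lower. With the set as a block limma gave 0%, 0.746%, 0.285%, 2.37%, 2.64% and 3.26%, with members at 0 in each (for SP over 3 sets, 935 genes unadjusted, and 12 higher and 54 lower by edgeR with the block). Without the block 1 of the 42 member differences had an unadjusted p under 0.05, *Dppa2* in 3p. With it there were 5, namely *Dppa2* in SP over 3 sets, 3p and 5p against 3p, *Dppa4* in SP over 3 sets and *Zscan4d* in 5p. With the block many genes had such a p: 1720 of 16490 in 3p, 2595 in 5p, 2610 in 5p against 3p, 2061 in SP and 3108 in SATS.

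**Figure D4:**
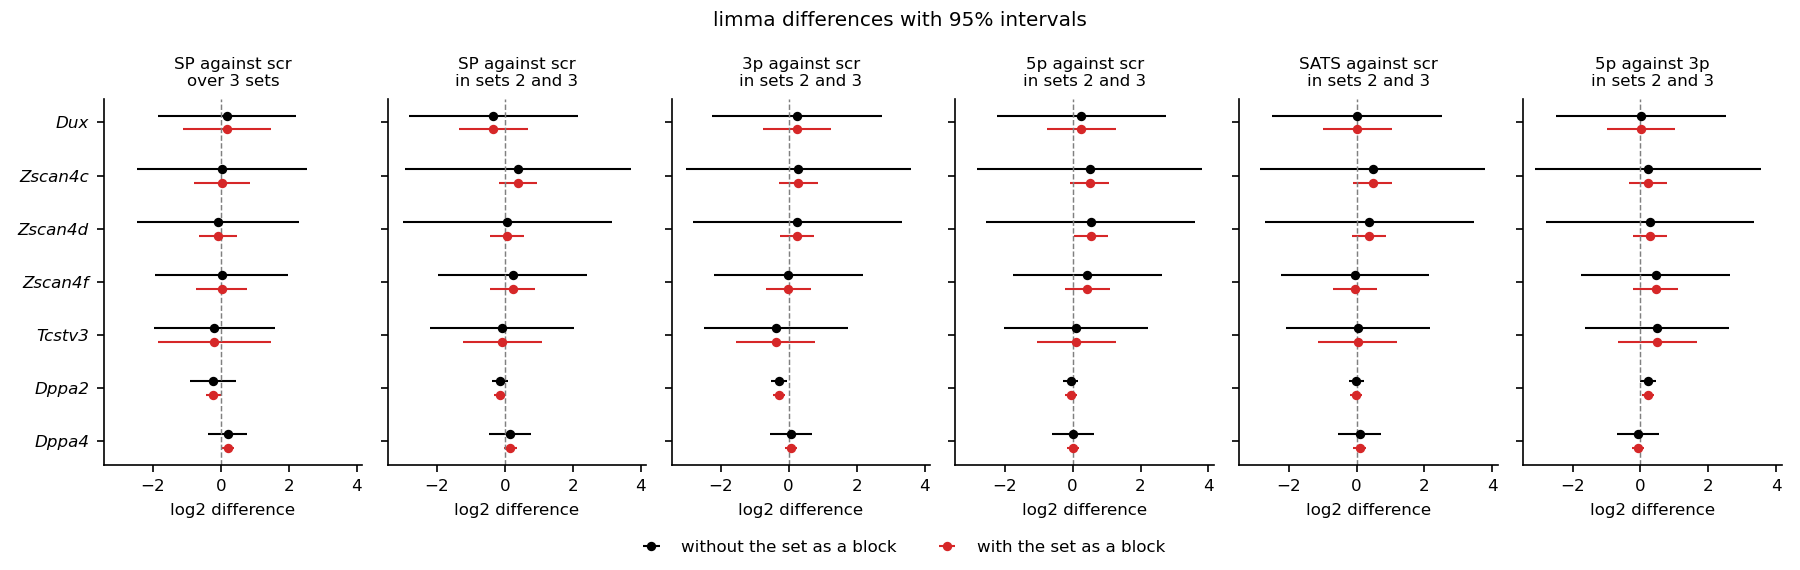
Log2 difference (x axis) of the 7 members tested (y axis) in 6 comparisons, with 95% intervals of limma without the set as a block in black and with it in red. For *Zscan4c* in 5p against scr the interval was -2.82 to 3.82 without the block and -0.065 to 1.07 with it.

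Set 1, the shallowest, held 3 SP libraries, which differed among themselves. *Zscan4c* was 93.8 in scr (14 reads), 146 in SP 1a (31), 12.9 in SP 1b (4) and 16.1 in SP 1c (2). *Zscan4d* was 127 in scr (19), 230.3 in SP 1a (49), 19.3 in SP 1b (6) and 40.3 in SP 1c (5). *Zscan4f* was 46.9 in scr (7), 75.2 in SP 1a (16), 6.43 in SP 1b (2) and 24.2 in SP 1c (3). SP 1a was the highest and SP 1b the lowest library for all 3 genes, with scr between them.

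The summed *Zscan4* genes were 1.69 times scr in SP 1a (95% counting interval 1.15 to 2.50), 0.144 times in SP 1b (0.0688 to 0.280) and 0.301 times in SP 1c (0.134 to 0.612). SP 1a exceeded SP 1b 11.7-fold (6.40 to 23.4) and SP 1c 5.60-fold (2.92 to 12.1). *Stag1* was at 25.4%, 31.1% and 32.8% of scr in SP 1a, SP 1b and SP 1c, and its part in this difference was not tested. The summed level of the 32 further 2C genes in the table, *Zscan4a* and *Zscan4b* among them, was 1306 in scr, 1838 in SP 1a, 540 in SP 1b and 515 in SP 1c. *Tcstv3* was detected at 3 reads in SP 1a (14.1), at 1 read in scr (6.70) and at 0 in SP 1b and SP 1c, and *Tcstv1* at 2 reads in SP 1a. *Dppa4*, in contrast, was alike in the 3 SP libraries, at 2021 to 2045. The summed primitive endoderm markers were also lower in SP 1b and SP 1c, at 589 in scr, 512 in SP 1a, 171 in SP 1b and 193 in SP 1c, and the summed mESC markers were 59573, 50360, 46334 and 38471. In the same order, the summed trophoblast markers were 790, 484, 621 and 2690, and the summed fibroblast markers 194, 197, 83.6 and 459. By these 2 lists SP 1c was the highest of the set, unlike SP 1b. The part of the marker differences in the *Zscan4* difference was not tested.

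Known regulators of the 2C program were checked from fixed lists of 34 repressors and 7 activators. Without the block none of either list was called in any of the 6 comparisons. With the block 2 of 34 repressors and 1 of 7 activators were called in 5p against scr, beside 2.37% of all genes. With SATS the counts were also 2 and 1, beside 2.64%. In 5p against 3p, 1 repressor was higher, 2 repressors and 1 activator were lower, beside 3.26%. SP and 3p had 0 in both lists. With the block, the repressors *Chaf1a*, a chromatin assembly factor subunit, and *Lin28a*, an RNA-binding protein, fell in 5p against scr by 0.34 (SE 0.084, adjusted p = 0.048) and by 0.68 (SE 0.085, adjusted p = 0.0011), and also against 3p. *Rnf2*, a Polycomb ubiquitin ligase, was higher in 5p than in 3p by 0.51 (adjusted p = 0.0052). *Ehmt1*, a histone methyltransferase, and *Zfp57*, a zinc finger factor of imprinted loci, fell with SATS by 0.32 (adjusted p = 0.037) and by 0.40 (adjusted p = 0.027). Of the activators, *Arid3a* fell in 5p by 0.38 (adjusted p = 0.049) and *Dppa3*, a maternal factor, rose with SATS by 0.75 (adjusted p = 0.019), both with the block.

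The most abundant regulators did not pass in any comparison. *Ncl*, which encodes nucleolin, was 30674 ± 2199 in set 2 and 28495 ± 1999 in set 3, *Trim28*, a co-repressor, 28992 ± 1819 and 26777 ± 2066, and *Rif1* 8820 ± 767 and 11198 ± 864. Of the activators, *Kdm5b* was 8787 ± 357 and 9520 ± 676, *Trp53* 4875 ± 349 and 4406 ± 226, and *Smad7* 1466 ± 73.4 and 1546 ± 77.7. Among the 29 further 2C genes, *Pramel7* was the 1 gene called, in 5p against 3p with the block, by 1.60 (SE 0.32, adjusted p = 0.014). Of all genes 3.26% were called there. The median difference of the 29 further 2C genes was 0.42 in 5p against scr, with 86.2% of them positive, beside 0.012 and 52.5% over all genes, and 0.53 in 5p against 3p. The primitive endoderm markers lay the same way, with 6 of 7 positive and a median of 0.40 in 5p against scr, and 7 of 7 and 0.17 against 3p, and their part in the 2C values was not tested. The trophoblast markers lay the other way, with 1 of 5 positive in both comparisons and medians of -0.26 and -0.12. Of the fibroblast and trophoblast markers, those called with the block were *Col1a1* and *Tfap2c*, lower in 5p than in scr, *Col3a1*, higher in 5p than in 3p, and *Krt8*, higher with SATS. In SP, 3p and SATS the median of the 2C genes was -0.13, -0.070 and -0.043.

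With the mean of each set removed, the genes most alike to each member over the 12 libraries of sets 2 and 3 were listed among 13402 others (13403 for *Dux*), as a description over libraries that share sets and treatments. For *Zscan4c* they were *Igtp*, *Zscan4d* and *Sp3os* (Pearson r of 0.908, 0.872 and 0.869), and for *Zscan4d* they were *Gm5039*, *Car13* and *3110057O12Rik* (0.915, 0.883 and 0.877). For *Zscan4f* they were *Usp17la*, *Fam58b* and *Uap1* (0.900, 0.878 and 0.873). *Dux* was most like *Rab17*, *Ptgs1* and *Zfp688* (0.828, 0.827 and 0.807), its r with *Zscan4c* and *Zscan4d* being 0.280 and 0.492. *Dppa2* was most like *Muc1*, *Nup153* and *Rnf138* (0.953, 0.916 and 0.905), and *Dppa4* was most like *Ttc5*, *Mir18* and *Mrps6* (0.946, 0.888 and 0.884). *Dppa2* and *Dppa4* themselves had an r of -0.330. Before the set means were removed, *Zscan4c* and *Zscan4d* had an r of 0.992 with each other and of -0.891 and -0.900 with *Dppa4*. With the set means removed, their r with *Dppa4* was 0.189 and 0.0035, so the negative values reflect the difference between sets.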

How the data were processed

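The authors aligned 75 bp reads of rRNA-depleted RNA to mm10 with hisat2, counted them with featureCounts and divided the counts by DESeq2 size factors, and the deposited signal per gene is the result. Dividing each column by its smallest non-zero value gave whole reads for 100% of values (within 1e-06), which were used as counts in edgeR and DESeq2 and for exact intervals. The methods state that low genes were removed, but 1503 genes had a summed value under 10.

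The log2(value + 1) was fitted with limma 3.58.1 in R 4.3.3 (lmFit, eBayes with trend; two-sided; Benjamini-Hochberg over all genes whose values summed to 10 or more), without the replicate set for SP and scr over 3 sets (SP 1a to 1c averaged) and for the 10 libraries of 5 groups in sets 2 and 3. Differences understate low genes. A gene was called at an adjusted p under 0.05. Since the labels number replicate sets, the set was added as a block in a second fit: deviations of same-numbered samples correlated at 0.717 (0.703 to 0.742) over 3 sets and at 0.825 (0.785 to 0.890) in the panel. Alternatives were edgeR 4.0.16, DESeq2 1.42.0, other pseudocounts and filters, other controls and leaving out libraries; the fits were tested on simulated data. Per-library ratios have exact conditional binomial 95% intervals, which cover counting error only, since reads carry no molecular identifiers.

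Named were the 8 members and 3 neighbours of each member with a mean of at least 10 reads. From the lists of further 2C genes, repressors and activators, the genes called and the 3 most abundant were named. Other genes, marker genes among them, were named after their values were seen. Of 58 further 2C genes written, 32 were in the table. Members and lists were chosen with earlier results of these data known. The table of set 1 alone and the libraries in 2i were not used.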

Additional observations from a re-analysis of the deposited data

Results flagged for a closer look

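Among the 5 SP libraries, SP 1a of set 1 stood apart for 3 of 8 members, its gap to the next library being a large part of the whole range by Dixon's criterion (0.71 for 5 samples), which chance exceeds in about 1 of 20 groups. The gap was 0.847 of the range for *Dux* (47.0 from 10 reads, median of the others 2.53), 0.847 for *Tcstv1* (9.40 from 2 reads, median of the others 0) and 0.765 for *Tcstv3* (14.1 from 3 reads, median of the others 0.958). All 3 values rest on 10 reads or fewer, in a set where 1 read is worth 3.22 to 8.05. *Zscan4d*, *Zscan4f* and *Zscan4c* were also highest in SP 1a, with gaps of 0.625, 0.620 and 0.513 of the range, below the criterion.
Over the 18180 genes that varied among the SP libraries, 12.5% had a library apart by this criterion, and in 1.99% it was SP 1a on the high side. Of the 1191 genes that were highest in SP 1a on 10 reads or fewer there, SP 1a stood apart in 21.2%.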

How the results depend on the processing

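In each of the 6 comparisons 0 members were called by limma, and the count was 0 with the replicate block and under every other alternative run. None of 539 member differences under the alternatives passed (lowest adjusted p 0.193). Since no direction was called, signs were unstable, and 114 of the 539 were opposite to the value reported. Over all genes the block raised the calls from 1 to 38 higher and 85 lower in SP, and from 1 to 47 in 3p, 2 to 391 in 5p, 0 to 436 in SATS and 0 to 537 in 5p against 3p.

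Opposite values on the log2 scale, by alternative, were as follows, for SP over 3 sets first where it applies. With edgeR they were -0.21 (*Zscan4c*) over 3 sets, -0.022 and -0.15 (*Zscan4c* and *Zscan4d*) in SP, -0.070 (*Zscan4c*) in 3p, -0.075 and -0.00068 (*Tcstv3* and *Dppa4*) in 5p, -0.34, -0.0018 and -0.059 (*Dux*, *Zscan4d* and *Tcstv3*) in SATS and -0.44 (*Dux*) in 5p against 3p. With edgeR and the replicate block they were -0.28 (*Dux*) over 3 sets, -0.076 (*Zscan4d*) in SP, -0.050 and -0.0046 (*Tcstv3* and *Dppa4*) in 5p, -0.25 and -0.053 (*Dux* and *Tcstv3*) in SATS and -0.38 (*Dux*) in 5p against 3p. With DESeq2 they were -0.27 and -0.043 (*Zscan4c* and *Zscan4f*) over 3 sets, -0.011 and -0.14 (*Zscan4c* and *Zscan4d*) in SP, -0.077 (*Zscan4c*) in 3p, -0.079 (*Tcstv3*) in 5p, -0.35, -0.0033, -0.070 and 0.00047 (*Dux*, *Zscan4d*, *Tcstv3* and *Dppa2*) in SATS and -0.43 (*Dux*) in 5p against 3p. With a pseudocount of 10 they were -0.072 and -0.021 (*Zscan4c* and *Zscan4f*) over 3 sets, -0.0051 (*Tcstv3*) in 5p, -0.076 and -0.012 (*Dux* and *Tcstv3*) in SATS and -0.10 (*Dux*) in 5p against 3p, and with 0.1, 0.087 (*Tcstv3*) in SP. With untreated and luciferase libraries among the controls they were 0.24 (*Tcstv3*) in SP, -0.032 (*Dppa4*) in 5p and -0.11 and 0.025 (*Dux* and *Dppa2*) in SATS. With 1 SP library for set 1, over 3 sets, they were 0.33 and 0.28 (*Zscan4d* and *Tcstv3*) for SP 1a, -0.51, -0.67 and -0.74 (*Dux*, *Zscan4c* and *Zscan4f*) for SP 1b and -1.20, -0.57 and -0.15 (the same genes) for SP 1c. The cause was not tested.

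Leaving out 1 set gave, for SP over 3 sets, -0.33 to 0.57 for *Dux*, -0.41 to 0.39 for *Zscan4c*, -0.30 to 0.074 for *Zscan4d*, -0.14 to 0.23 for *Zscan4f* and -0.92 to 0.42 for *Tcstv3*. In sets 2 and 3, leaving out 1 library compares 1 set with 2, and a lone sample is assumed to vary like the others. For SP the ranges were -1.35 to 0.69 for *Dux*, -1.28 to 2.06 for *Zscan4c*, -1.39 to 1.54 for *Zscan4d*, -0.76 to 1.23 for *Zscan4f*, -1.12 to 0.98 for *Tcstv3* and -0.046 to 0.38 for *Dppa4*. For 3p they were -1.13 to 1.64, -1.38 to 1.96, -1.21 to 1.73, -1.01 to 0.98, -1.43 to 0.67 and -0.14 to 0.28 in the same order. For 5p they were -0.76 to 1.28, -1.17 to 2.17, -0.93 to 2.00, -0.56 to 1.43, -0.94 to 1.16 and -0.24 to 0.25, and -0.12 to 0.00029 for *Dppa2*. For SATS they were -1.0 to 1.04, -1.20 to 2.14, -1.09 to 1.84, -1.04 to 0.95, -1.01 to 1.09 and -0.21 to 0.39, and -0.066 to 0.054 for *Dppa2*. For 5p against 3p they were -1.38 to 1.4, -0.96 to 1.39, -0.88 to 1.43, -0.40 to 1.30, -0.26 to 1.24 and -0.31 to 0.18.

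The set difference kept its direction for the 7 members under 2 other scalings and over the 5 shared treatments, chosen after the data were seen. *Zscan4c*, *Zscan4d* and *Zscan4f* were wholly higher in set 2 in each, and over the shared treatments *Dux* was too (4 members). Depth limits *Dux*, *Tcstv1* and *Tcstv3* in all sets and all members but *Dppa2* and *Dppa4* in set 1.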

Other observations

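When all 5 *Zscan4* rows of the table (*Zscan4a*, *Zscan4b*, *Zscan4c*, *Zscan4d* and *Zscan4f*) were summed, as an alternative chosen after the data were seen, the sum was 358 ± 38.6 in set 2 and 70.3 ± 16.95 in set 3 (SD, n = 6 each), and 442, 762, 70.8 and 153 in scr, SP 1a, SP 1b and SP 1c of set 1. Set 1 thus held both the highest *Zscan4* level of all 16 libraries and, in SP 1b, a level within the range of set 3. Relative to scr of the set, the sum was 0.880 in SP, 0.917 in 3p, 0.987 in 5p, 0.895 in SATS and 0.730 in untreated cells in set 2. In set 3 it was 1.54 in SP, 1.56 in 3p, 2.08 in 5p, 2.04 in SATS and 1.61 with luciferase siRNA. Each library of set 3 was therefore above the 1 scr library of its set, and each library of set 2 below that of its own. In set 2 the 95% counting intervals of 3p (0.835 to 1.006) and 5p (0.898 to 1.084) covered 1.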
